A study of Arabidopsis thaliana with 24 samples.

Results

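To examine how the loss of HY5 alters the response of the root transcriptome to elevated ambient temperature, the genotype by temperature interaction was tested in all 12 root libraries of the series, which holds 24 libraries in all. The interaction is the change between 28 °C and 22 °C in *hy5-215* roots minus the same change in Col-0 roots, on the log2 scale. A positive value means that a gene went up more, or went down less, with temperature in *hy5-215* than in Col-0. Every gene with enough counts entered the test, 16982 of the 33977 gene identifiers in the deposited tables, and the genes are grouped by what happened to their response.

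The study measured mRNA by 3′Tag-Seq, in which each read comes from near the 3′ end of a transcript, so that the counts of a gene do not grow with its length. The 4 groups of root samples were *hy5-215* at 28 °C, *hy5-215* at 22 °C, Col-0 at 28 °C and Col-0 at 22 °C, with 3 biological replicates each. Col-0 is the wild-type (WT) accession, and *hy5-215* is a mutant of *HY5*. Seedlings grew under white light on medium without sucrose, and either remained at 22 °C or were transferred to 28 °C for 4 h, per the sample labels and the paper, whereas the series' design text has 24 h. The labels and the paper also differ in the age of the seedlings, and the labels' genotype entry reads *hy5* for every root sample, so genotypes were taken from the sample titles. Roots were sampled as bulk tissue, so a lower count can mean fewer cells of a type or less RNA per cell, and these cannot be told apart.

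HY5 is a bZIP transcription factor that accumulates in the light, is removed in darkness by the COP1 and SPA proteins, and binds DNA elements with an ACGT core such as the G-box. It is best known for promoting photomorphogenesis and for activating the genes of flavonoid synthesis. Thermomorphogenesis is the set of growth responses of a plant to mildly elevated temperature, among them elongation of the hypocotyl and of the root. In the root, HY5 also takes part in nitrate uptake and in hair growth.

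Total counts were 3077241, 3078290 and 2066416 in *hy5-215* roots at 28 °C and 2296016, 2956078 and 2303316 at 22 °C. Col-0 roots had 2455073, 2625364 and 2627108 counts at 28 °C, and 1828946, 1700048 and 1212281 at 22 °C, the lowest of the 4 groups. *HY5* itself (AT5G11260, TAIR10.1 chromosome 5, 3593335 to 3595073, minus strand) had 12.6, 12.4 and 9.95 CPM (counts scaled to library size with TMM factors) in *hy5-215* at 28 °C and 15.8, 21.4 and 12.9 CPM at 22 °C. In Col-0 it had 61.8, 64 and 54 CPM at 28 °C and 55.2, 60.8 and 78.8 CPM at 22 °C. Every *hy5-215* library thus lay below every Col-0 library, although 3′ reads are counted whether or not a functional protein is made, so this level does not test the allele directly. *HY5* showed no interaction that passed the threshold (log2 -0.42 ± 0.29 SE, edgeR adjusted p = 0.672).

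Root identity was checked with 8 markers, all of which were detected in every group. *PYK10*, a β-glucosidase of ER bodies and among the most abundant root transcripts, had 4240 to 7440 CPM over the 12 libraries. Transcripts of green tissue were also counted. The summed level of 8 photosynthesis markers was 572, 798 and 1060 CPM in *hy5-215* at 28 °C and 600, 714 and 712 CPM at 22 °C, against 936, 710 and 817 CPM in Col-0 at 28 °C and 1410, 1210 and 1420 CPM at 22 °C. The Col-0 libraries at 22 °C were therefore the highest for green tissue transcripts as well as the shallowest, and the part of either in the results was not tested.

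The interaction passed an adjusted p of 0.05 (quasi-likelihood test in edgeR, Benjamini-Hochberg adjustment over all genes tested) for 240 genes, which is 1.41% of the genes tested. Of these, 178 were positive (1.05%) and 62 negative (0.365%). The median interaction was 1.5 among the positive genes and -1.1 among the negative ones, against 0 over all genes tested, and 186 genes differed by at least 2-fold. In the same fit, 738 genes changed with temperature in *hy5-215* (4.35%), 383 higher at 28 °C (2.26%) and 355 lower (2.09%), and 1297 in Col-0 (7.64%), 547 higher (3.22%) and 750 lower (4.42%). Between the genotypes, *hy5-215* differed from Col-0 for 1732 genes at 28 °C (10.2%), 1076 higher (6.34%) and 656 lower (3.86%), and for 2222 genes at 22 °C (13.1%), 1151 higher (6.78%) and 1071 lower (6.31%). The number of interactions depended on single libraries, from 142 genes without Col-0 at 22 °C replicate 2 to 251 without Col-0 at 22 °C replicate 3, and thinning every library to the depth of the shallowest gave 135. Without *hy5-215* at 22 °C replicate 2 the negative genes numbered 31.

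Loss of a response was the most frequent pattern. A gene was counted as lost when its change was called in Col-0 but not in *hy5-215*, and 149 of the 240 genes belonged to this class, 109 that fell at 28 °C in Col-0 and 40 that rose. Their median change, regardless of sign, was 0.31 in *hy5-215*, against 1.12 in Col-0, and the fitted change had the opposite sign in *hy5-215* for 113 of them. A response was gained, that is called in *hy5-215* only, for 54 genes, of which 43 rose and 11 fell at 28 °C. It was reversed for 17 genes, which changed in both genotypes and in opposite directions. For 15 of these the transcript rose in *hy5-215* and fell in Col-0, and for *ST4B* and *PIP2;4* the directions were the other way round. Only 5 genes kept the direction of Col-0 with a larger change in *hy5-215* (*TT4*, *F3H*, *FLS1*, *BT1* and *XTH24*), and 3 kept it with a smaller one (*XTH15*, *AGP22* and *AT2G37870*). The remaining 12 genes passed the test of the interaction without a called change in either genotype. The lost genes numbered 89 without Col-0 at 22 °C replicate 2, and without *hy5-215* at 22 °C replicate 2 the gained genes numbered 25 and the reversed genes 7.

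**Figure D1:**
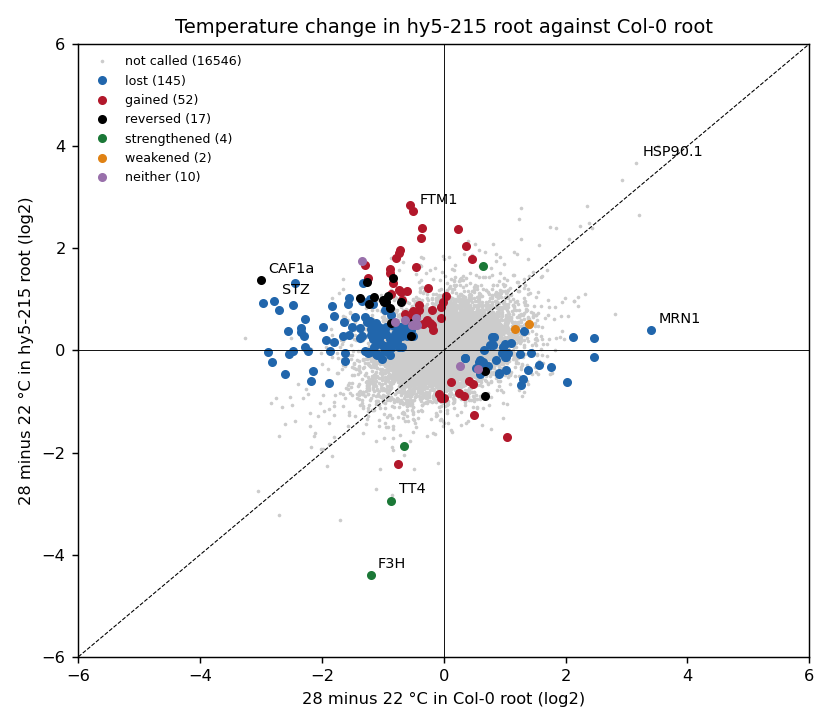
Each point is one gene, placed by its log2 change between 28 °C and 22 °C in Col-0 roots (x axis) and in *hy5-215* roots (y axis), with the genes whose interaction was called coloured by class and the dashed line marking equal changes. Lost genes lie along the horizontal axis and gained genes along the vertical axis, *TT4* and *F3H* lie far below the dashed line, and *HSP90.1* lies close to it. The 206 genes at the floor (no library of a group above 3 counts), 10 of them called, are not drawn.

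A difference of differences can arise from any of the 4 groups. For each of the 240 genes the group was found whose mean log2 CPM lay farthest from the mean of the other groups. It was Col-0 at 22 °C for 134 genes (55.8%; 93 higher and 41 lower than the rest), and over all genes tested that group was the farthest in 35%. The *hy5-215* roots at 22 °C stood apart for 45 genes (18.8%, against 21.2% over all genes tested). Col-0 at 28 °C stood apart for 34 (14.2% against 21.1%) and *hy5-215* at 28 °C for 27 (11.2% against 22.7%). Unlike Col-0 at 22 °C, each of these groups stood apart less often among the 240 genes than over all genes tested. The difference between the genotypes at 22 °C was called for 187 of the 240 genes and that at 28 °C for 98.

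The gene with the smallest p was *AT1G56660* (TAIR10.1 chromosome 1, 21237839 to 21241014), annotated as a MAEBL domain protein. It had 342, 343 and 373 CPM in *hy5-215* at 28 °C and 253, 313 and 382 CPM at 22 °C, against 330, 319 and 313 CPM in Col-0 at 28 °C and 931, 1110 and 1300 CPM at 22 °C. The 3 Col-0 libraries at 22 °C lay far above the other 9, which overlapped. The log2 change was 0.16 in *hy5-215*, not called, and -1.8 in Col-0, and the interaction was 1.95 ± 0.18 (SE, edgeR adjusted p = 3.26e-08).

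Regulators that are switched on within minutes by wounding, touch, cold or pathogens were examined as a list. By number of genes, they formed the largest group of lost, gained or reversed responses among the lists examined. Of 28 such genes 26 were tested, and 13 had a positive interaction and 0 a negative one, with a median of 1.61. The called share was 50%, against 1.41% over all genes tested and 55.6% of the aquaporins described below. In *hy5-215*, 9 of the 26 rose at 28 °C (2.26% over all genes) and 0 fell, whereas in Col-0 10 fell (4.42%) and 0 rose. Their summed level was 705, 668 and 817 CPM in *hy5-215* at 28 °C and 461, 473 and 524 CPM at 22 °C, against 439, 469 and 556 CPM in Col-0 at 28 °C and 805, 844 and 1000 CPM at 22 °C. The order of the temperatures was thus opposite in the genotypes, with no overlap between temperatures in either. Thinning to equal depth left 8 called genes, as did leaving out *hy5-215* at 28 °C replicate 3. Col-0 at 22 °C, the group highest for these genes, was also highest for the green tissue markers and shallowest, and the part of those in this result was not tested.

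*CAF1a*, a subunit of the CCR4-NOT deadenylase complex that shortens mRNA tails, reversed its response (AT3G44260, TAIR10.1 chromosome 3, 15952008 to 15953346). It had 11.9, 8.89 and 15.6 CPM in *hy5-215* at 28 °C and 4.52, 3.4 and 6 CPM at 22 °C, against 2.83, 8 and 11 CPM in Col-0 at 28 °C and 53.5, 55.3 and 70.4 CPM at 22 °C. The Col-0 roots at 22 °C were several-fold above all others. The log2 change was 1.37 in *hy5-215* and -3 in Col-0 (interaction 4.37 ± 0.45 SE, edgeR adjusted p = 5.35e-07). Its relative *CAF1b* gained a rise in *hy5-215* (1.96), with a Col-0 change of -0.72 that was not called.

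*STZ*, also known as ZAT10, and *RHL41*, also known as ZAT12, encode zinc finger proteins that act in the response to salt, cold, light and oxidative stress. *STZ* had 18.1, 19.1 and 36 CPM in *hy5-215* at 28 °C and 9.95, 8.17 and 18.9 CPM at 22 °C, against 5.25, 5.33 and 12.5 CPM in Col-0 at 28 °C and 44.4, 47.9 and 70.4 CPM at 22 °C. The Col-0 groups were far apart, while the *hy5-215* groups overlapped. The change was 0.96 in *hy5-215*, not called, and -2.78 in Col-0 (interaction 3.74 ± 0.45 SE, edgeR adjusted p = 5.85e-06). *RHL41* had 29.3, 28.9 and 20.9 CPM in *hy5-215* at 28 °C and 30.7, 26.9 and 23.2 CPM at 22 °C, against 20.2, 21.7 and 17.5 CPM in Col-0 at 28 °C and 79.7, 87.9 and 115 CPM at 22 °C. Its change was -0.01 in *hy5-215* and -2.23 in Col-0, and no change was called in the mutant (interaction 2.22 ± 0.27 SE, edgeR adjusted p = 5.85e-06).

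*SZF1*, a CCCH zinc finger protein of the salt response, was the second reversed gene of this list. It had 58, 54.9 and 73.5 CPM in *hy5-215* at 28 °C and 23.5, 37.1 and 37.7 CPM at 22 °C, against 26.2, 29.7 and 48.6 CPM in Col-0 at 28 °C and 64.9, 79.9 and 102 CPM at 22 °C. Neither pair of groups overlapped, and the 2 pairs ran in opposite directions (0.9 in *hy5-215* and -1.22 in Col-0, interaction 2.12 ± 0.29 SE, edgeR adjusted p = 2.77e-05). The related ethylene response factors *ERF5* and *ERF6*, which act in defence and in growth under stress, rose in *hy5-215* (1.8 and 1.9) and had changes of -0.78 and -0.74 in Col-0 that were not called. *AT5G10695*, annotated as a methionyl-tRNA synthetase and outside the list, was reversed as well (1.02 in *hy5-215* and -1.37 in Col-0). *WRKY33*, a regulator of defence against fungi, rose in *hy5-215* (1.05) but its interaction was 0.5 with an edgeR adjusted p of 0.725.

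Several other lost genes also had Col-0 at 22 °C as the high group. *ACS6*, which makes the precursor of ethylene, had 12.9, 15.9 and 15.6 CPM in *hy5-215* at 28 °C and 8.59, 9.19 and 15 CPM at 22 °C, against 6.46, 9.9 and 12.5 CPM in Col-0 at 28 °C and 41.6, 54.7 and 52.8 CPM at 22 °C (interaction 2.79 ± 0.36 SE, edgeR adjusted p = 1.49e-05). Only the Col-0 libraries at 22 °C stood clear of the rest. The interactions of *NUDT21*, a nudix hydrolase, *DIC2*, a dicarboxylate carrier of mitochondria, *AT2G30020*, a protein phosphatase of the PP2C family, and *DTX35*, an efflux carrier, were 2.6, 3.35, 2.89 and 1.57, and those of *AT2G42760* and *AT4G27652*, whose products have no assigned role here, were 1.85 and 2.85. The calmodulin-like touch gene *TCH2* was lost as well, with 51.6, 53 and 47.4 CPM in *hy5-215* at 28 °C and 31.7, 34.7 and 38.6 CPM at 22 °C, against 27.9, 39.6 and 41.4 CPM in Col-0 at 28 °C and 60.4, 75.6 and 106 CPM at 22 °C (interaction 1.66 ± 0.26 SE, edgeR adjusted p = 0.000167). The groups ran in opposite directions without overlap in either genotype, although the change in *hy5-215* (0.54) was not called. On the opposite strand another gene overlaps *TCH2*, and whether counting used the strand is not given in the sources used here.

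**Figure D2:**
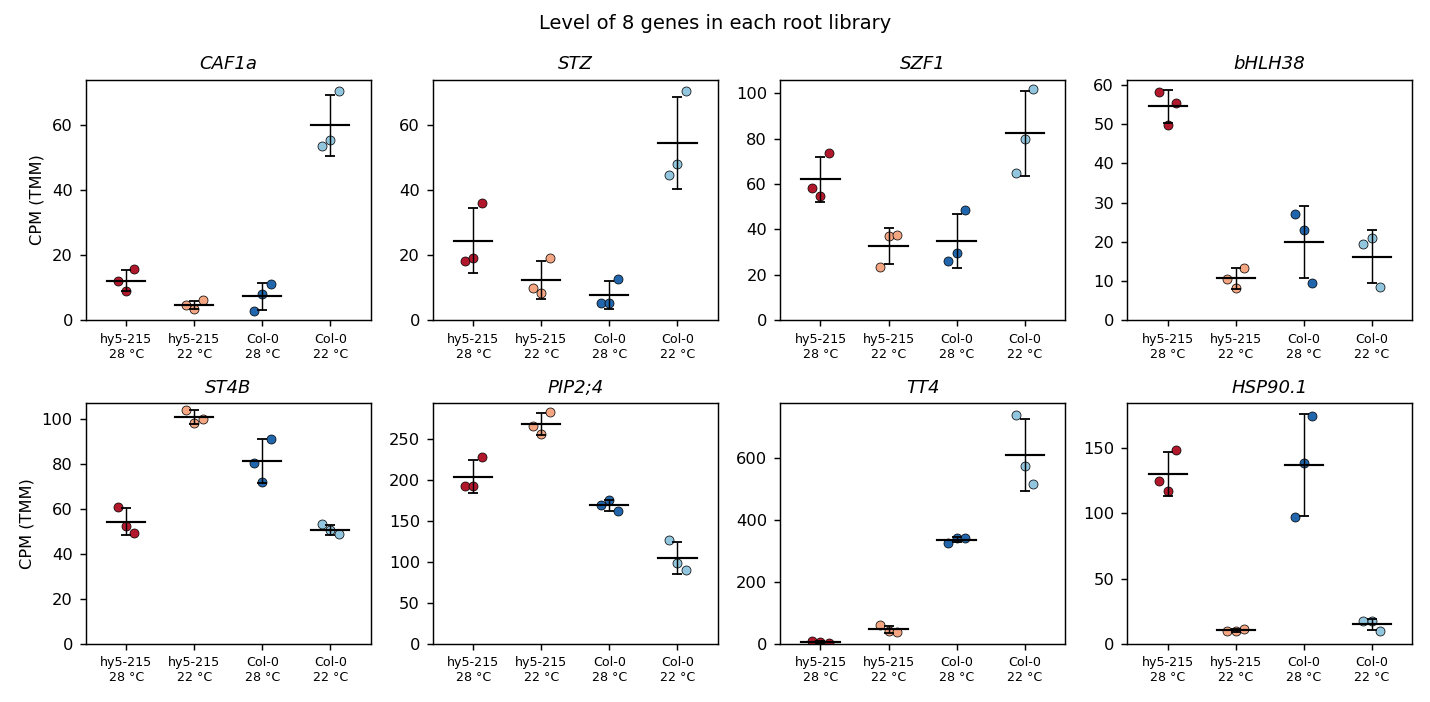
Each panel gives one gene, with its level in TMM-scaled CPM (y axis from 0) in each of the 12 root libraries (points), the group mean (bar) and the SD (whiskers, n = 3). *CAF1a* and *STZ* are high only in Col-0 at 22 °C, *SZF1*, *ST4B* and *PIP2;4* run in opposite directions in the 2 genotypes, *bHLH38* is high only in *hy5-215* at 28 °C, *TT4* is lowest in *hy5-215* at 28 °C, and *HSP90.1* is high at 28 °C in both genotypes.

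Aquaporins lost an increase that Col-0 showed. These membrane channels of the PIP (plasma membrane) and TIP (vacuole membrane) families carry water, and the root list held 22 genes, of which 18 were tested. A total of 10 had a negative interaction (0.365% over all genes) and 0 a positive one (1.05%), with a median of -0.55. In *hy5-215*, 2 of the 18 rose at 28 °C (2.26% over all genes) and 1 fell (2.09%). In Col-0, 14 rose (3.22%) and 1 fell (4.42%). At 22 °C the *hy5-215* root already had higher levels than Col-0 for 15 of the 18 (6.78% over all genes), and at 28 °C for 6 (6.34%). The summed level was 16000, 16000 and 15500 CPM in *hy5-215* at 28 °C and 16200, 15700 and 15000 CPM at 22 °C, against 12400, 12500 and 12600 CPM in Col-0 at 28 °C and 8100, 8060 and 7780 CPM at 22 °C. The *hy5-215* groups overlapped, both lay above Col-0 at 28 °C, and Col-0 at 22 °C was the lowest. Col-0 at 22 °C was the group farthest from the others for all 10 called aquaporins. It was also the shallowest and the highest for green tissue markers, and the part of those in this result was not tested.

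*TIP2;3*, a vacuolar channel found mostly in roots, had 746, 758 and 835 CPM in *hy5-215* at 28 °C and 796, 908 and 953 CPM at 22 °C, against 386, 393 and 342 CPM in Col-0 at 28 °C and 228, 190 and 199 CPM at 22 °C. The 2 Col-0 groups were separate, and both lay below all *hy5-215* libraries. The change was -0.18 in *hy5-215*, not called, and 0.86 in Col-0 (interaction -1.04 ± 0.15 SE, edgeR adjusted p = 5.43e-05). The abundant *PIP2A* had 1880, 1770 and 1630 CPM in *hy5-215* at 28 °C and 2400, 1990 and 1780 CPM at 22 °C, against 1300, 1400 and 1440 CPM in Col-0 at 28 °C and 873, 997 and 912 CPM at 22 °C. Its interaction was -0.8 ± 0.14 (SE, edgeR adjusted p = 0.00133), and those of *PIP1C*, *TIP2*, *PIP2B*, *TIP2;2*, *PIP1A*, *PIP1B* and *GAMMA-TIP* lay between -0.77 and -0.50.

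*PIP2;4* (AT5G60660) was the one aquaporin with a reversed response. It had 192, 192 and 227 CPM in *hy5-215* at 28 °C and 265, 256 and 283 CPM at 22 °C, against 169, 175 and 162 CPM in Col-0 at 28 °C and 127, 98.3 and 89.7 CPM at 22 °C. The groups did not overlap in either genotype, with the higher level at 22 °C in *hy5-215* and at 28 °C in Col-0. The change was -0.4 in *hy5-215* and 0.67 in Col-0 (interaction -1.07 ± 0.18 SE, edgeR adjusted p = 0.000364). The other gene reversed in this direction, *ST4B*, encodes a sulfotransferase and had 60.9, 52.4 and 49.3 CPM in *hy5-215* at 28 °C and 104, 98 and 99.9 CPM at 22 °C, against 80.3, 72 and 91.2 CPM in Col-0 at 28 °C and 53, 50.4 and 48.6 CPM at 22 °C. At 28 °C the *ST4B* level of the mutant reached the range of Col-0 at 22 °C (interaction -1.56 ± 0.2 SE, edgeR adjusted p = 1.29e-05).

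Further increases of Col-0 that were lost included *ASD1*, an α-L-arabinofuranosidase that trims cell wall polymers, with 100, 96.5 and 85.8 CPM in *hy5-215* at 28 °C and 92.2, 101 and 101 CPM at 22 °C, against 94.9, 93.3 and 103 CPM in Col-0 at 28 °C and 30.8, 33.8 and 45.2 CPM at 22 °C. Only Col-0 at 22 °C was low (interaction -1.49 ± 0.2 SE, edgeR adjusted p = 2.77e-05). *SLAH3*, an anion channel, had 132, 127 and 118 CPM in *hy5-215* at 28 °C and 112, 133 and 144 CPM at 22 °C, against 57.7, 57.9 and 60 CPM in Col-0 at 28 °C and 31.9, 28.3 and 23.5 CPM at 22 °C (interaction -1.1 ± 0.21 SE, edgeR adjusted p = 0.00259). *MRN1*, the marneral synthase of a root triterpene cluster, had 129, 138 and 188 CPM in *hy5-215* at 28 °C and 83.2, 115 and 145 CPM at 22 °C, against 8.48, 10.7 and 31.2 CPM in Col-0 at 28 °C and 0.570, 0.614 and 4.19 CPM at 22 °C. Its interaction of -3.02 ± 0.7 (SE, edgeR adjusted p = 0.0169) was not called by DESeq2 (adjusted p = 0.098) or in 4 of the 12 fits without a single library (adjusted p up to 0.156, without Col-0 at 22 °C replicate 2).

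In flavonoid synthesis, a decrease at 28 °C became steeper in the mutant for the genes called. Of the 10 tested genes of this list, 3 had a negative interaction (0.365% over all genes) and 0 a positive one (1.05%). The median was -0.73, or -0.58 with the 3 genes at the floor of 3 counts per library set to their bound. The called genes are 3 of the 5 genes with a strengthened response. Of the 10 genes, 4 had a positive sign. A decrease at 28 °C was called for 4 of the 10 in *hy5-215* (2.09% over all genes) and 8 in Col-0 (4.42%). All 10 were lower in *hy5-215* than in Col-0 at 22 °C (6.31% over all genes) and 9 at 28 °C (3.86%). Their summed level was 19, 24.1 and 15.2 CPM in *hy5-215* at 28 °C and 137, 107 and 90 CPM at 22 °C, against 644, 647 and 676 CPM in Col-0 at 28 °C and 1520, 1320 and 1180 CPM at 22 °C. None of the 4 groups overlapped another.

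*TT4*, the chalcone synthase that opens the pathway (AT5G13930, TAIR10.1 chromosome 5, 4488476 to 4490264), had 7.74, 6.67 and 2.84 CPM in *hy5-215* at 28 °C and 59.7, 42.5 and 39 CPM at 22 °C, against 327, 341 and 342 CPM in Col-0 at 28 °C and 740, 573 and 515 CPM at 22 °C. It fell in both genotypes at 28 °C, and the *hy5-215* libraries lay below all Col-0 libraries at either temperature. The change was -2.94 in *hy5-215* and -0.86 in Col-0 (interaction -2.08 ± 0.28 SE, edgeR adjusted p = 2.41e-05). *F3H*, the flavanone 3-hydroxylase (AT3G51240, TAIR10.1 chromosome 3, 19025192 to 19026872), had 0.322, 0.953 and 2.84 CPM in *hy5-215* at 28 °C and 31.7, 29.6 and 17.6 CPM at 22 °C, against 86, 80.7 and 87 CPM in Col-0 at 28 °C and 228, 198 and 154 CPM at 22 °C (interaction -3.19 ± 0.44 SE, edgeR adjusted p = 3.24e-05). The *hy5-215* roots at 28 °C were close to the detection limit. Both genes overlap a gene on the opposite strand.

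*FLS1*, the flavonol synthase, had 0.645, 0.318 and 0 CPM in *hy5-215* at 28 °C and 4.52, 7.83 and 4.72 CPM at 22 °C, against 54.9, 66.7 and 63.8 CPM in Col-0 at 28 °C and 151, 133 and 131 CPM at 22 °C. With 3 counts or fewer in each *hy5-215* library at 28 °C, the mean at 28 °C was at least 5.11-fold lower than at 22 °C in the mutant, set against a floor of 3 counts per library (1.11 CPM), while Col-0 was 2.25-fold lower at 28 °C than at 22 °C. Its interaction had an edgeR adjusted p of 0.0149, against 0.0863 with DESeq2, and 0.0967 without *hy5-215* at 28 °C replicate 2. Not every gene of the pathway followed: *TT5*, the chalcone isomerase, had an interaction of 0.78 and an edgeR adjusted p of 0.639, and *CHIL*, a chalcone isomerase-like protein, one of -0.66 with an adjusted p of 0.361. Nor was a steeper decrease called for *MYB12*, the activator of flavonol synthesis. It had 0.480 CPM in *hy5-215* at 28 °C and 1.69 CPM at 22 °C, against 21.1 CPM in Col-0 at 28 °C and 22.6 CPM at 22 °C (mean, n = 3 each). Its mean in *hy5-215* at 28 °C lay below the 1.11 CPM of the floor, so the missing call rests on few counts.

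To show the sequence upstream of genes of these classes, the 250 bases before the annotated start of 4 genes were read from TAIR10.1 (RefSeq). The flavonoid genes *TT4* (chr5:4488226-4488475, plus strand) and *F3H* (chr3:19024942-19025191, plus strand) stand for the strengthened class, *STZ* (chr1:9649324-9649573, minus strand) for the lost decreases and *PIP2;4* (chr5:24377207-24377456, minus strand) for the aquaporins. Each is written 5′ to 3′ on the strand of its gene, with every ACGT in capitals.
TT4: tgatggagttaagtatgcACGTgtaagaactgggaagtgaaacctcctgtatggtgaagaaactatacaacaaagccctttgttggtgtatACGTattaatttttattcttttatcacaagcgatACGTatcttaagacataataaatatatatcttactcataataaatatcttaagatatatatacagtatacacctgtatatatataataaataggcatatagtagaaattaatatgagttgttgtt
F3H: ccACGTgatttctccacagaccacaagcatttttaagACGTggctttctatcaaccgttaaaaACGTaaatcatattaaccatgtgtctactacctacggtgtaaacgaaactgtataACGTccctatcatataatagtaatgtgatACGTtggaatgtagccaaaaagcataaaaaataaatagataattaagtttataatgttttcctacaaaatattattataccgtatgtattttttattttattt
STZ: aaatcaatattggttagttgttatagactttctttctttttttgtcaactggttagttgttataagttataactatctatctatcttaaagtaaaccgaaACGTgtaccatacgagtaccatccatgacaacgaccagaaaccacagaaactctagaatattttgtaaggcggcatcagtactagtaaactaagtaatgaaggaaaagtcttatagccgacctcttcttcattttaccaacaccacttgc
PIP2;4: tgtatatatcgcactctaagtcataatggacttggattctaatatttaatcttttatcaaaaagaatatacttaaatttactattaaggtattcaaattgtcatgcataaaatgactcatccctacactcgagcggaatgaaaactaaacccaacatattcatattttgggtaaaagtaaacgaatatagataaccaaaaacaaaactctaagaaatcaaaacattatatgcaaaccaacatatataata

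The *TT4* stretch held 3 ACGT cores and the *F3H* stretch 5, and in each of them 1 core was part of a CACGTG, 233 and 249 bases before the start. The *STZ* stretch held 1 ACGT and the *PIP2;4* stretch 0. The motifs were searched on both strands of such stretches for 16973 of the tested genes, and every CACGTG also holds an ACGT. ACGT was found in 44.5% of all stretches, in 55% of those of the 240 called genes, in 53% of the lost, 57.4% of the gained and 64.7% of the reversed genes. By list, it was found in 53.8% of the rapid stress regulators, 40% of the flavonoid genes, 33.3% of the aquaporins and 29.4% of the hypoxia genes. CACGTG was found in 7.4% of all stretches, in 8.75% of the called genes and in 4 of the 10 flavonoid genes. CGCGT, the core bound by calmodulin-binding CAMTA factors, was found in 7.48% of all stretches, in 17.4% of the 109 genes whose decrease was lost and in 3.23% of the 62 genes with a negative interaction. TTGAC, bound by WRKY factors, was found in 45.3% of all stretches and in 17 of the 26 rapid stress regulators (65.4%). GAANNTTC, of heat shock elements, and CCGAC, of cold-response elements, were found in 9.08% and 13.2% of all stretches and in 10% and 13.3% of the called genes. In the 26 rapid stress regulators their shares were 26.9% and 15.4%. These shares describe letters, not binding.

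Genes induced by low oxygen had the largest median among the lists with no member at the floor. All 17 were tested, 5 had a positive interaction (1.05% over all genes) and 0 a negative one (0.365%), and the median was 1.65. *hy5-215* was lower than Col-0 for 15 of the 17 at 22 °C (6.31% over all genes) and for 7 at 28 °C (3.86%). Their summed level was 627, 623 and 266 CPM in *hy5-215* at 28 °C and 442, 346 and 186 CPM at 22 °C, against 1170, 982 and 586 CPM in Col-0 at 28 °C and 2280, 1870 and 852 CPM at 22 °C. Replicate 3 was the lowest library in every group, for 16, 15, 16 and 14 of the 17 genes in the same order of groups. The 2 temperatures overlapped in both genotypes when the replicate number was ignored, whereas within each number the sum was higher at 28 °C than at 22 °C in *hy5-215* and lower in Col-0.

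*ADH1*, the alcohol dehydrogenase of fermentation, had 66.1, 61.9 and 16.1 CPM in *hy5-215* at 28 °C and 35.3, 19.4 and 6 CPM at 22 °C, against 145, 119 and 91.2 CPM in Col-0 at 28 °C and 428, 337 and 108 CPM at 22 °C (interaction 2.63 ± 0.53 SE, edgeR adjusted p = 0.00483). The call was lost with DESeq2 (adjusted p = 0.357) and without *hy5-215* at 28 °C replicate 1 (adjusted p = 0.0567). *FTM1*, an acyl-ACP desaturase, gained a rise in *hy5-215*, with 77, 73.4 and 10.4 CPM at 28 °C and 10.9, 5.45 and 9.43 CPM at 22 °C, against 214, 173 and 88.2 CPM in Col-0 at 28 °C and 316, 267 and 83.8 CPM at 22 °C (interaction 3.24 ± 0.61 SE, edgeR adjusted p = 0.00262, and 0.149 with DESeq2). *AT4G33070*, a pyruvate decarboxylase, and the sucrose synthases *SUS1* and *SUS4* were lost, with interactions of 2.14, 1.18 and 2.21. The call of *AT4G33070* was lost with DESeq2 (adjusted p = 0.236) and without *hy5-215* at 28 °C replicate 1 (0.0575), and that of *SUS1* in 3 of the 12 fits without a single library (up to 0.0595). Over the list, leaving out single libraries gave 1 called gene without *hy5-215* at 28 °C replicate 1 and 10 without Col-0 at 22 °C replicate 3, and DESeq2 gave 1. With the replicate number as a block in the edgeR fit, 11 genes of the list were called. Another gene overlaps *ADH1* on the opposite strand. Within the last 400 bases of the transcript, 127 aligned bases of *AT4G33070* matched *PDC3* at 92.9% identity.

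**Figure D3:**
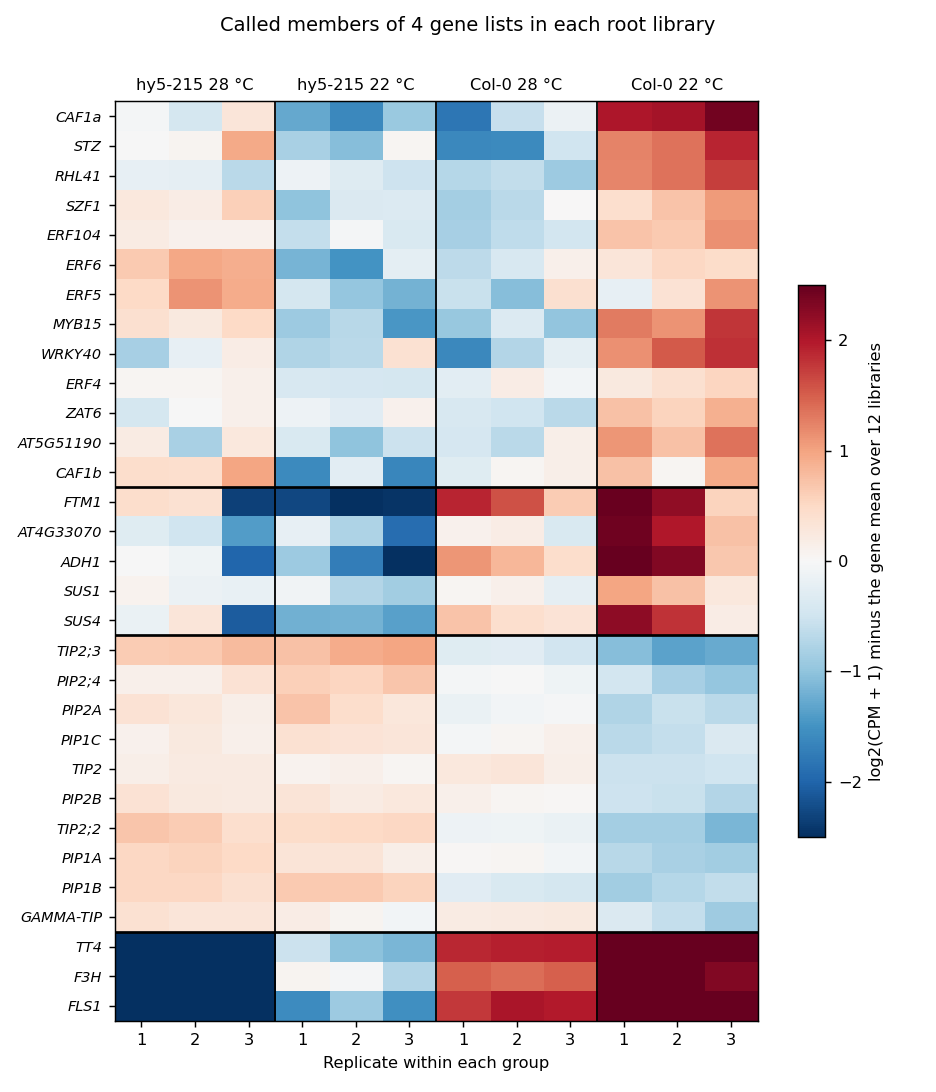
Rows are the called members of 4 gene lists (from the top, rapid stress regulators, hypoxia response, PIP and TIP aquaporins, flavonoid synthesis) and columns the 12 root libraries, with colour giving log2(CPM + 1) minus the mean of the gene over the 12 libraries. Most rapid stress regulators are highest in Col-0 at 22 °C, *ERF5* and *ERF6* are highest in *hy5-215* at 28 °C, aquaporins are lowest in Col-0 at 22 °C, flavonoid genes are lowest in *hy5-215* at 28 °C, and replicate 3 is the lowest of its group for most hypoxia genes. The colour scale ends at 2.5 in either direction.

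Among the genes of iron uptake, 2 gained a response. *bHLH38* and *bHLH39* encode partners of the iron uptake regulator FIT and are induced by iron shortage. *bHLH38* had 58.3, 49.9 and 55.5 CPM in *hy5-215* at 28 °C and 10.4, 8.17 and 13.3 CPM at 22 °C, against 27.1, 22.9 and 9.5 CPM in Col-0 at 28 °C and 19.4, 20.9 and 8.38 CPM at 22 °C. Only the mutant at 28 °C stood apart, with a change of 2.37 in *hy5-215* and 0.23 in Col-0 (interaction 2.14 ± 0.41 SE, edgeR adjusted p = 0.00311). *bHLH39* had 99.9, 100 and 111 CPM in *hy5-215* at 28 °C and 33.9, 30.6 and 25.7 CPM at 22 °C, against 69, 67 and 35.3 CPM in Col-0 at 28 °C and 32.5, 52.2 and 39.4 CPM at 22 °C (interaction 1.32 ± 0.28 SE, edgeR adjusted p = 0.00847). That call was lost without Col-0 at 22 °C replicate 2 (adjusted p = 0.107). Of the other tested genes of the list, the iron transporter *IRT1* had an interaction of 1.22 (edgeR adjusted p = 0.107) and *BHLH100* one of 0.56 (edgeR adjusted p = 0.882). In all, 2 of 10 were positive (1.05% over all genes) and 0 negative (0.365%), with a median of 0.54. *OPT3*, which moves iron in the phloem, and *NAS1*, which makes the iron chelator nicotianamine, were gained too (1.49 and 1.13) but were chosen after their values were seen.

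Sulfur and glucosinolate genes had 3 positive interactions among 13 tested (1.05% over all genes) and 0 negative (0.365%). The median was 0.64, or 0.86 with the 2 genes at the floor set to their bound. *APR2*, a sulfate-reducing enzyme, and *LSU2*, induced by low sulfur, were gained, with changes of 0.78 and 1.52 in *hy5-215* and -0.51 and -0.89 in Col-0 that were not called. The call of *LSU2* was lost without Col-0 at 22 °C replicate 3 or *hy5-215* at 28 °C replicate 2 (adjusted p up to 0.0549). *CYP79B2*, which feeds tryptophan into indole glucosinolates and auxin, was lost (interaction 1.16). *NSP1*, a nitrile-specifier protein that acts on glucosinolate breakdown, had 869, 743 and 881 CPM in *hy5-215* at 28 °C and 716, 814 and 1040 CPM at 22 °C, against 431, 438 and 406 CPM in Col-0 at 28 °C and 949, 1030 and 1050 CPM at 22 °C. Here Col-0 at 28 °C was the group apart, low in all 3 libraries (interaction 1.21 ± 0.16 SE, edgeR adjusted p = 1.48e-05). *PYK10* was reversed, with 5480, 5200 and 5440 CPM in *hy5-215* at 28 °C and 4290, 4240 and 4650 CPM at 22 °C, against 4860, 4870 and 4960 CPM in Col-0 at 28 °C and 6510, 7400 and 7440 CPM at 22 °C (interaction 0.83 ± 0.11 SE, edgeR adjusted p = 2.73e-05). *PYK10* and *APR2* overlap genes on the opposite strand.

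*NIA1*, a nitrate reductase, lost its decrease, with 112, 125 and 143 CPM in *hy5-215* at 28 °C and 143, 132 and 114 CPM at 22 °C, against 27.1, 40 and 47.1 CPM in Col-0 at 28 °C and 103, 104 and 54.5 CPM at 22 °C. Both mutant groups lay above all Col-0 libraries (interaction 1.17 ± 0.26 SE, edgeR adjusted p = 0.00989, and 0.0955 without Col-0 at 22 °C replicate 2). *THAS1*, the thalianol synthase, was reversed, with 277, 265 and 339 CPM in *hy5-215* at 28 °C and 159, 212 and 231 CPM at 22 °C, against 52.9, 59.8 and 82.8 CPM in Col-0 at 28 °C and 106, 139 and 109 CPM at 22 °C (interaction 1.4 ± 0.22 SE, edgeR adjusted p = 0.000206). The other 5 genes of the triterpene clusters beside *THAS1* and *MRN1* were not called (median of all 7, 0.33).

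Among genes of cold and abscisic acid, 3 of 13 tested were positive (1.05% over all genes) and 0 negative (0.365%), with a median of 0.41. The decrease of *KIN2*, a small cold-induced protein, was lost, with 57.4, 66.1 and 66.4 CPM in *hy5-215* at 28 °C and 70.5, 55.5 and 72.9 CPM at 22 °C, against 92.9, 93.3 and 160 CPM in Col-0 at 28 °C and 264, 259 and 304 CPM at 22 °C (interaction 1.19 ± 0.23 SE, edgeR adjusted p = 0.00311). The dehydrins *ERD10*, whose decrease was lost, and *COR47*, which gained a rise, had interactions of 0.81 and 0.57, and the call of *COR47* was lost in 7 of the 12 fits without a single library (adjusted p up to 0.1). Within the last 400 bases of the transcript, 113 aligned bases of *KIN2* matched *KIN1* at 96.5% identity, so their counts may be shared. In the green tissue list, *RBCS1A* and *CAB1* were positive (1.05% over all genes), 0 were negative (0.365%) and all 8 had a positive sign (median 0.84). Both called genes have a stretch near the 3′ end that matches another gene (97.6% identity over 85 bases and 92% over 162). Over 70 tested genes whose annotation names a photosynthesis product, 11 were positive (1.05% over all genes) and 0 negative (0.365%). Col-0 at 22 °C was the highest group for 60 of the 70, and the share over all genes was not computed.

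Genes that loosen or remodel the cell wall moved in several directions. *XTH24*, a xyloglucan endotransglucosylase/hydrolase, had 191, 172 and 194 CPM in *hy5-215* at 28 °C and 59.7, 55.8 and 60.9 CPM at 22 °C, against 116, 102 and 112 CPM in Col-0 at 28 °C and 56.4, 67.6 and 90.5 CPM at 22 °C. The rise with temperature was called in both genotypes and larger in the mutant (1.66 in *hy5-215* and 0.64 in Col-0, interaction 1.02 ± 0.2 SE, edgeR adjusted p = 0.00379). *XTH15* rose by less in the mutant (0.51 in *hy5-215* and 1.4 in Col-0, edgeR adjusted p = 0.00933 for the interaction, and 0.0504 without *hy5-215* at 22 °C replicate 2), and the decrease of *XTH31* was lost (interaction 1.3). Of 24 tested genes of this family 2 were positive (1.05% over all genes) and 1 negative (0.365%), with a median of -0.07. Of 15 tested expansins, *EXPA4* and *EXPB3* were positive (1.01 and 0.92) and 0 were negative, against 1.05% and 0.365% over all genes. The call of *EXPA4* was lost without *hy5-215* at 28 °C replicate 3 (adjusted p = 0.060), and that of *EXPB3* in 9 of the 12 fits without a single library (adjusted p up to 0.144, without *hy5-215* at 22 °C replicate 2).

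The heat response proper was not called as different between the genotypes. *HSP90.1*, a cytosolic chaperone induced by heat, had 125, 117 and 149 CPM in *hy5-215* at 28 °C and 9.5, 9.53 and 11.6 CPM at 22 °C, against 96.9, 139 and 175 CPM in Col-0 at 28 °C and 17.1, 17.8 and 10.1 CPM at 22 °C. It rose in every library at 28 °C over every library at 22 °C, by 3.67 in *hy5-215* and 3.15 in Col-0, and the interaction was 0.51 ± 0.33 (SE, edgeR adjusted p = 0.647). Of 15 tested chaperones 8 rose in *hy5-215* and 8 in Col-0 (2.26% and 3.22% over all genes). Among these chaperones 0 interactions were called by edgeR or DESeq2, 0 at an unadjusted p of 0.05, and the median was 0.05. Of 7 tested small heat shock proteins 5 rose in *hy5-215* and 6 in Col-0 (2.26% and 3.22% over all genes). In this list 0 interactions were called by edgeR or DESeq2 and 1 at an unadjusted p of 0.05. However, 4 of the 7 genes were at the floor in a group. The list median was -2.17 as fitted, or 0.5 with those 4 genes set to their bound, so its direction is not settled. Among 12 tested heat shock factors (median 0.33) only *HSFA6B*, a factor linked to abscisic acid, was called (edgeR adjusted p = 0.0125), against 1.41% over all genes. It had 3.79 to 7.62 CPM in *hy5-215* at 28 °C and 1.36 to 1.81 CPM at 22 °C, against 2.42 to 7.62 CPM in Col-0 at 28 °C and 6.7 to 16.6 CPM at 22 °C. The call was lost in 3 of the 12 fits without a single library (edgeR adjusted p up to 0.0906, without Col-0 at 22 °C replicate 2). After thinning to equal depth *HSFA6B* did not enter the test.

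Hormone and growth lists mostly stayed near the median over all genes. No interaction was called by edgeR or DESeq2 among 18 tested genes of auxin synthesis and transport (median 0.12), 11 of brassinosteroid synthesis and inactivation (0.06), 16 of root hair growth (-0.11), 28 cyclins and CDKB kinases (-0.06), 13 clock genes (-0.01), 15 genes of HY5 and light signalling (0.01) or 82 cytosolic ribosomal proteins (-0.06). At an unadjusted p of 0.05 these lists held 1, 0, 1, 3, 0, 1 and 2 genes in the same order. Over all genes tested the interaction was called for 1.41%, and 1780 of 16982 had an unadjusted p of at most 0.05. The ribosomal proteins fell at 28 °C for 23 genes in *hy5-215* and 21 in Col-0 (2.09% and 4.42% over all genes). In the *IAA*, *SAUR* and *GH3* families, 2 of 59 tested genes were positive (1.05% over all genes) and 0 negative (0.365%). The median was -0.03, or 0.04 with the gene at the floor set to its bound. The called genes were the SAUR-like *AT3G12830* and *AT5G53590*, and neither call held when libraries were thinned to equal depth (edgeR adjusted p of 0.388 and 0.123). *IAA19*, an auxin-induced repressor, had 9.35, 10.8 and 16.6 CPM in *hy5-215* at 28 °C and 8.14, 9.53 and 9.86 CPM at 22 °C, against 12.9, 12.6 and 10.6 CPM in Col-0 at 28 °C and 5.13, 2.46 and 6.7 CPM at 22 °C. Its change in *hy5-215* was 0.38, not called, and it rose in Col-0 (1.37, edgeR adjusted p = 0.0199), but the interaction, -0.99 ± 0.49 (SE, edgeR adjusted p = 0.481), was not called.

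Of the other genes of auxin and brassinosteroid action examined by name, the carrier gene *PILS6* (AT5G01990) had an interaction of -0.48 ± 0.3 (SE, adjusted p = 0.619), the brassinosteroid synthesis gene *CPD* one of -0.05 ± 0.25 (SE, adjusted p = 0.977), and the inactivating genes *BAS1* and *CYP72C1* (also SOB7) ones of -0.21 ± 0.53 (SE, adjusted p = 0.945) and 0.51 ± 0.33 (SE, edgeR adjusted p = 0.645). *SAUR40* (AT1G79130) and *SAUR77* (AT1G17345) had 0 to 5 counts in every library and were not tested.

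**Figure D4:**
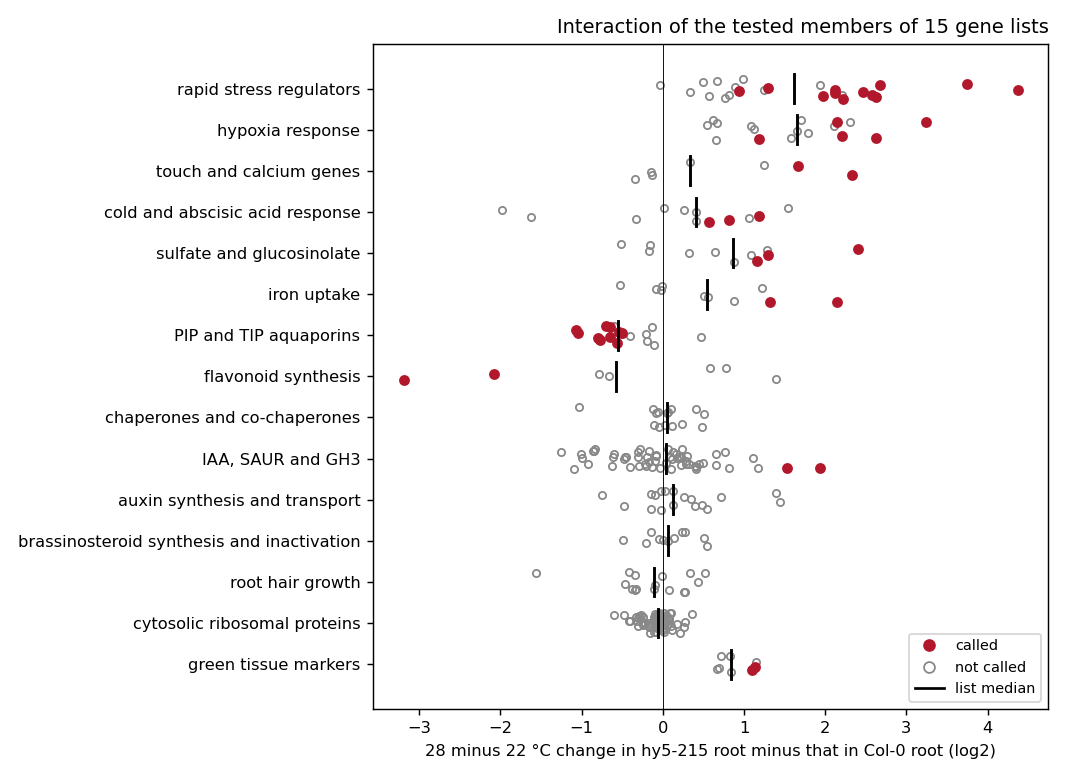
Each point is one tested gene of one of 15 gene lists, placed by its interaction (log2, x axis), filled where the adjusted p was at most 0.05, with the list median as a bar (genes at the floor of 3 counts set to their bound for the median and not drawn). Rapid stress regulators and hypoxia genes lie to the right of 0 (medians 1.61 and 1.65), aquaporins to the left (-0.55), and chaperones, auxin, brassinosteroid and ribosomal protein genes around 0.

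The remaining lists held few called genes. Over all genes tested, 1.05% were positive and 0.365% negative. *JAZ1*, a repressor of jasmonate signalling, was positive among 9 genes of its list (interaction 1.39, list median 0.55), and the peroxidase *AT2G38380* among 52 (1.01, list median 0.05). *CML38*, a calmodulin-like gene, was the second positive gene beside *TCH2* among 7 touch and calcium genes (2.33, list median 0.33). *ACS6* was the positive gene of 10 ethylene genes (list median -0.18), *NIA1* of 10 nitrate and ammonium genes (list median 0.41), and *DIN10* the negative gene of 13 of sugar starvation (-1.07, list median -0.31). Of the 8 root markers, *PYK10* was positive and *TIP2;3* and *PIP2B* negative (list median -0.16), so 3 markers of the tissue were themselves among the called genes. Gained decreases were seen for *GDPD2*, a phosphodiesterase, with a change of -0.89 in *hy5-215*, and for *AT2G22122*, an uncharacterized protein, with -0.84. Opposite-strand genes also overlap *bHLH38*, *XTH15*, *AT5G10695*, *CAB1*, *DIN10*, *CPD*, *PILS6* and *CYP72C1*. Of the 240 called genes, 48 overlap such a gene, and the share over all genes tested was not computed. The call of *JAZ1* was lost after thinning (adjusted p = 0.0689), that of *CML38* after thinning (0.167) and in 7 of the 12 fits without a single library (up to 0.168, without *hy5-215* at 28 °C replicate 1), and that of *DIN10* with DESeq2 (0.332) and in 8 of those 12 fits (up to 0.138, without Col-0 at 28 °C replicate 1).

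To ask whether these interactions differed between root and shoot (the tissue labelled hypocotyl), the root interaction minus the shoot interaction was tested over all 24 libraries, where 60 of 18666 genes were called (0.321%). They included 37 of the 240 genes called in the root, 31 with a higher and 6 with a lower interaction in the root than in the shoot, and in 26 of the 37 the fitted shoot interaction had the opposite sign. The 240 genes were selected on the same root libraries that enter this test, and that selection alone favours called differences. Over all 240 genes the shoot interaction had the same sign for 179. It was called for 15 of the 240 genes, against 100 of all 18666 genes. The share of all genes with the same sign was not computed. *TT4* had an interaction of -2.09 in the root and 1.04 in the shoot, a difference of -3.13 ± 0.5 (SE, edgeR adjusted p = 0.00105). *F3H* differed by -3.33 (edgeR adjusted p = 0.0337). *XTH24* had 1 in the root and -0.82 in the shoot, a difference of 1.82 ± 0.28 (SE, adjusted p = 0.00105), and *CAF1a* had 4.34 in the root and 1.26 in the shoot, a difference of 3.08 ± 0.57 (SE, edgeR adjusted p = 0.00436). For *RHL41* and *ACS6* an interaction was called in the shoot as well (1.09 and 1.53), and the difference between the tissues was not called (adjusted p of 0.301 and 0.42). The 37 genes became 9, and the 60 genes 16, without *hy5-215* root at 22 °C replicate 2.

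**Figure D5:**
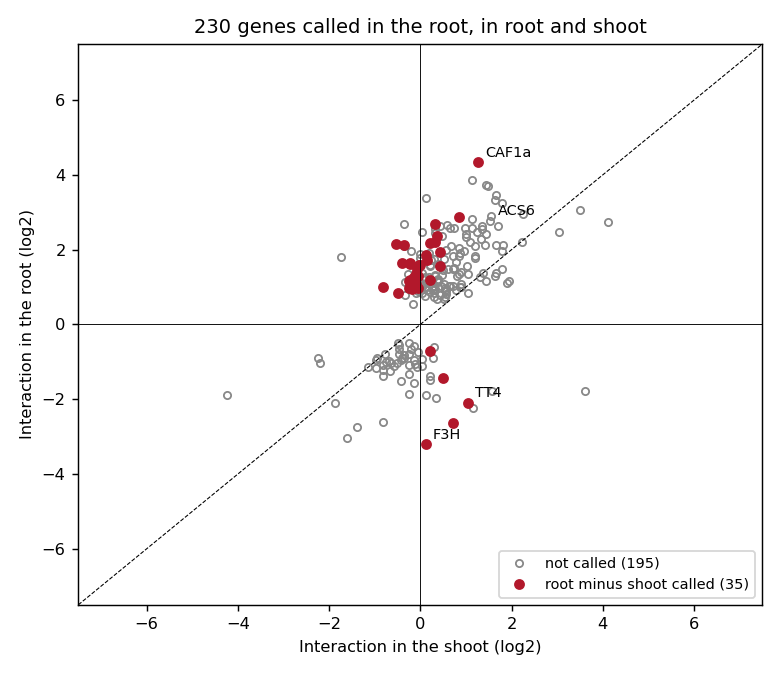
Each point is one of 230 genes called in the root (10 with a root group at the floor are not drawn), placed by the fitted interaction in the shoot (x axis) and in the root (y axis, log2), filled for the 35 drawn genes whose root and shoot interactions differed and with the dashed line marking equality. *CAF1a*, *TT4* and *F3H* lie away from the line, and *ACS6* lies above it without a called difference.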

How the data were processed

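Messenger RNA of 12 root samples (4 groups of 3 biological replicates) was measured by 3′Tag-Seq. The authors deposited 1 table per tissue and genotype of raw read counts per gene, not normalized, and the tables were joined by gene identifier. Per the paper and the submitters' processing notes, reads were checked with FastQC, aligned to TAIR10 with HISAT2 and counted with HTSeq; versions and the use of strand are not given in the sources used here. Of 33977 gene identifiers 32548 matched the TAIR10.1 annotation and 1429 did not.

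The deposited counts of the root libraries were filtered (filterByExpr, minimum count 10, minimum total 15), TMM-scaled and fitted with 1 mean per group in edgeR 4.0.16 (R 4.3.3, limma 3.58.1), with quasi-likelihood F-tests and Benjamini-Hochberg adjustment over all genes tested. The call threshold was an adjusted p of 0.05 with no fold cutoff. The SE of a log2 value is its size divided by the square root of F and is approximate. CPM values are TMM-scaled. A group with 3 counts or fewer in every library was taken as at the floor, and no fold was given against it other than a bound. Total counts were 1212281 to 3078290 per library, and replicates differed by more than sampling noise (chi-square per degree of freedom 1.77 to 4.11). Root and shoot interactions were compared in 1 fit over 24 libraries.

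Alternatives were DESeq2 1.42.0, library size alone, other filters, the likelihood ratio test, fold cutoffs, unadjusted p, thinning, separate fits per genotype, a replicate block and leaving out each library. Sequences came from TAIR10.1. Similar 3′ ends (at least 90% identity over at least 80 bases within the last 400) were searched with blastn 2.17.0+.

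Genes were named by rule: in each direction the 12 called genes with the smallest adjusted p and a mean of at least 20 counts, the 4 reversed genes per direction with the smallest adjusted p, up to 4 called genes per list with the smallest adjusted p, and *HY5*, *IAA19*, *SAUR40*, *SAUR77*, *PILS6*, *CPD*, *BAS1*, *SOB7* and *HSP90.1*. Other genes named to fill in a list or class, such as *WRKY33*, *CAF1b*, *ERF5*, *ERF6*, *TT5*, *CHIL*, *MYB12*, *IRT1*, *BHLH100*, *SUS4*, the aquaporins outside the rule, *BT1* and *AGP22*, were chosen after their values were seen. The comparison, the members and the 29 gene lists were chosen with earlier results of these data known.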

Additional observations from a re-analysis of the deposited data

Results flagged for a closer look

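For 12 of 66 named genes the interaction differed between root and shoot in the test over all 24 libraries (edgeR's quasi-likelihood test, adjusted over 18666 genes). Over all genes tested the share was 0.321%. Most named genes were chosen for a called interaction in the same root libraries. That choice alone favours called differences, so the count is no separate evidence. A steeper decrease in the mutant root was called for 3 of the 10 tested flavonoid genes, *TT4*, *F3H* and *FLS1*. Over all genes tested in the root, the interaction was negative for 0.365%. *TT4* differed by -3.13 ± 0.5 (SE, adjusted p = 0.00105), with a shoot interaction of 1.04 that was not called (adjusted p = 0.209) and shoot means of 28.4 CPM in *hy5-215* at 28 °C and 56.7 CPM at 22 °C, against 34.3 CPM in Col-0 at 28 °C and 139 CPM at 22 °C. *F3H* differed by -3.33 ± 0.75 (SE, edgeR adjusted p = 0.0337), with shoot means of 4.77 CPM in *hy5-215* at 28 °C and 15 CPM at 22 °C, against 6.35 CPM in Col-0 at 28 °C and 21.6 CPM at 22 °C. *FLS1* had a fitted difference of -3.74 (edgeR adjusted p = 0.0341), which depends on the prior count because *hy5-215* roots at 28 °C were at the floor of 3 counts.

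*XTH24* differed by 1.82 ± 0.28 (SE, edgeR adjusted p = 0.00105), and its shoot interaction was called in the other direction (-0.82, adjusted p = 0.016), with shoot means of 903 CPM in *hy5-215* at 28 °C and 636 CPM at 22 °C, against 1660 CPM in Col-0 at 28 °C and 663 CPM at 22 °C. *CAF1a* differed by 3.08 ± 0.57 (SE, edgeR adjusted p = 0.00436), with a called shoot interaction of the same sign (1.26, adjusted p = 0.0237). *TCH2* differed by 1.86, *AT1G56660* by 1.49, *AT2G30020* by 2.02, *AT5G10695* by 1.99, *NIA1* by 1.42, *CAB1* by 1.17 and *DTX35* by 1.11, each positive and with an edgeR adjusted p of 0.0452 or below. What lies behind these differences was not tested.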

How the results depend on the processing

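Depth and single libraries limit the counts of genes more than the leading genes. DESeq2 called 201 genes, 196 of them among the 240, and thinning to the shallowest library called 135 (107 positive and 28 negative), 127 of them shared. No named gene with a called interaction reversed its direction under the settings run, and DESeq2 ended 6 of their calls and thinning 7. Beside those 7, *HSFA6B* did not enter the test after thinning. Of the named genes not called, *BAS1* ranged from -0.64 to 0.4, *HY5* from -0.58 to 0.1 and *CPD* from -0.19 to 0.07, so their sign is not settled. Without a filter on low counts 413 genes were called (290 positive and 123 negative; 236 lost, 9 weakened, 86 gained, 45 reversed and 30 in neither class), and at an unadjusted p of 0.05 there were 1780 (1035 positive and 745 negative). A 2-fold cutoff left 38 negative genes. Thinning gave 92 lost, 0 weakened, 24 gained, 3 strengthened and 8 reversed genes, and DESeq2 3 strengthened. Library size alone gave 5 weakened and 6 in neither class, fits of 6 libraries 22 in neither class, and a 2-fold cutoff for a response 96 lost, 1 weakened, 32 gained, 2 strengthened, 4 reversed and 105 in neither class. Beyond the thresholds and filters themselves, the cause was not tested.

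Leaving out 1 library at a time gave 142 to 251 called genes, 110 to 188 positive and 31 to 75 negative. The classes then held 89 to 147 lost, 0 to 5 weakened, 25 to 63 gained, 3 to 6 strengthened, 7 to 24 reversed and 4 to 18 genes in neither. The root minus shoot test gave 16 to 80 genes, 9 to 40 of them among those called in the root.

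Across all genes, deviations of libraries with the same replicate number correlated at -0.064 to 0.0879 over 18 pairs (median 0.00089). Libraries with different numbers correlated at -0.0656 to 0.0552 (median -0.000299). Both medians were near 0, the main fit did not pair libraries, and the sources used here tie the numbers to no shared day or batch. The hypoxia genes were an exception, with replicate 3 lowest in each of the 4 groups. With the replicate block 263 genes were called, 228 of them shared, and 26 were reversed. The hypoxia list then had 11 called genes, against 5 without the block.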
